A study of Mus musculus with 10 samples.

Results

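White fat from the pad that lies beside the epididymis was profiled in 4 obese wild-type male mice of the C57/Bl6 strain. The 4 arrays were those titled WT, out of 10 in the series, and no array of an inflammasome-deficient genotype entered any value. The mice were between 8 and 12 weeks old at the start and ate a diet with 45% of its energy as fat for 16 weeks. Each array held RNA of 1 mouse, the labels name no engineered allele in these mice, and lean mice were not analysed here. Whole tissue was used, so a weaker signal can mean fewer cells of a type or less RNA per cell, and these cannot be told apart.

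Obese epididymal fat is a mixture of lipid-filled adipocytes, blood vessels, fibroblast-like progenitors, mesothelium and immune cells. Macrophages are its best known infiltrate. They collect around dying adipocytes, take up lipid and cell debris, and degrade them in lysosomes. Adgre1 encodes F4/80, an adhesion receptor on the macrophage surface that is the usual marker of these cells in mouse fat. Adipocytes are recognised by secreted hormones such as adiponectin and leptin, by lipid droplet proteins and by the enzymes that make and break triglyceride.

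All values are RMA signals on the log2 scale, so that a difference of 1 is a 2-fold difference in signal. Unless replicates are named, 4 values in a row belong to replicates 1, 2, 3 and 4, which are different mice. Background was taken from 23 control probe sets designed to match no mouse transcript. Their medians were 3.15, 2.94, 2.91 and 2.91. The highest of them read 4.65, 4.75, 4.77 and 4.92, and a gene was called above background where it exceeded that value on the same array. A single control set this limit, since the second highest lay between 3.49 and 3.67. Of 17097 genes, 9454 (55.3%) were above background on all 4 arrays.

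The arrays did not stand equally close. Pairwise correlations over all probe sets ran from 0.973 to 0.992, and replicates 1 and 3 differed by at least 1 in 1539 genes, against 295 genes for replicates 3 and 4. Poly-A spike-in controls, which are RNAs added to each sample during labelling, averaged 7.80, 6.50, 6.19 and 5.76. The 3′ minus 5′ signal of actin, a measure of how far along the transcript copying and integrity reach, was 1.05, 0.91, 0.53 and 0.46. Both measures were higher on replicates 1 and 2 than on replicates 3 and 4. Adgre1 was lower on replicates 1 and 2, so the split between these pairs of arrays goes with the technical measures, and their part in the patterns below was not tested. Hybridisation controls, added after labelling, spread by a median of 0.40 over the arrays.

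The tissue carried the genes of white fat at high signal. All 13 matched markers of mature adipocytes were above background on all 4 arrays, and their means over the arrays ran from 8.31 to 13.93. Fabp4, the fatty acid carrier of adipocytes, read 13.95, 14.01, 13.82 and 13.95. Adipoq, which encodes adiponectin, read 13.61, 13.66, 13.23 and 13.52. Lpl, the lipase that releases fatty acids from blood lipoproteins, spread by only 0.09. The 24 subunits of the respiratory chain and ATP synthase and the 16 enzymes of the citric acid cycle were likewise above background on every array.

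Macrophage genes were as uniformly present. All 24 pan-macrophage markers, all 16 genes of lipid-associated macrophages and all 21 lysosomal genes were above background on all 4 arrays. Among collagen and other matrix genes this held for 27 of 28, and among endothelial markers for 16 of 16. The lymphocyte lists read otherwise. Of 16 markers of T and NK cells, 3 were above background on all 4 arrays and 9 on none. Cd3e, a chain of the T cell receptor complex, read 4.68, 4.69, 4.84 and 4.57, above the limit on 2 arrays. Of 10 markers of B and plasma cells, 6 were above background on no array, among them Cd79a, a chain of the B cell receptor, at 4.14, 4.21, 4.06 and 4.18. The other 4 were above it on all arrays. They were Cd22, Cd79b, Ms4a1 and Jchain, which links secreted antibodies and read 9.88, 9.47, 9.74 and 9.54.

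Several messengers that are often measured in obese fat were not above background. Il1b read 3.71, 4.26, 4.15 and 3.78, and Il6 read 3.38, 3.32, 3.39 and 3.39. Nlrp3, an inflammasome sensor, lay between 4.20 and 4.52. Tnf exceeded the limit only on replicate 3, at 4.81. These readings say only that the probe sets did not exceed the control, not that the genes were silent. Ccl2, the monocyte-attracting chemokine, was well above it at 8.73, 9.62, 9.40 and 8.87, and Il18 lay between 7.78 and 8.24.

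Genes of the organs next to the fat pad, and of muscle and pancreas, were mostly at background. None of the 13 epididymis markers was above it on all 4 arrays, and 11 were above it on no array. For testis germ cells the counts were 1 of 14 on all arrays and 7 on none, and for skeletal muscle 3 of 12 and 7. Of 9 pancreas markers 8 were above background on no array. The liver list went less far, with 2 of 11 above background on all arrays, 4 on none and the rest on 1 or 2. Several exceptions among these lists, some of them very bright on 1 or 2 arrays, are described below.

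**Figure D1:**
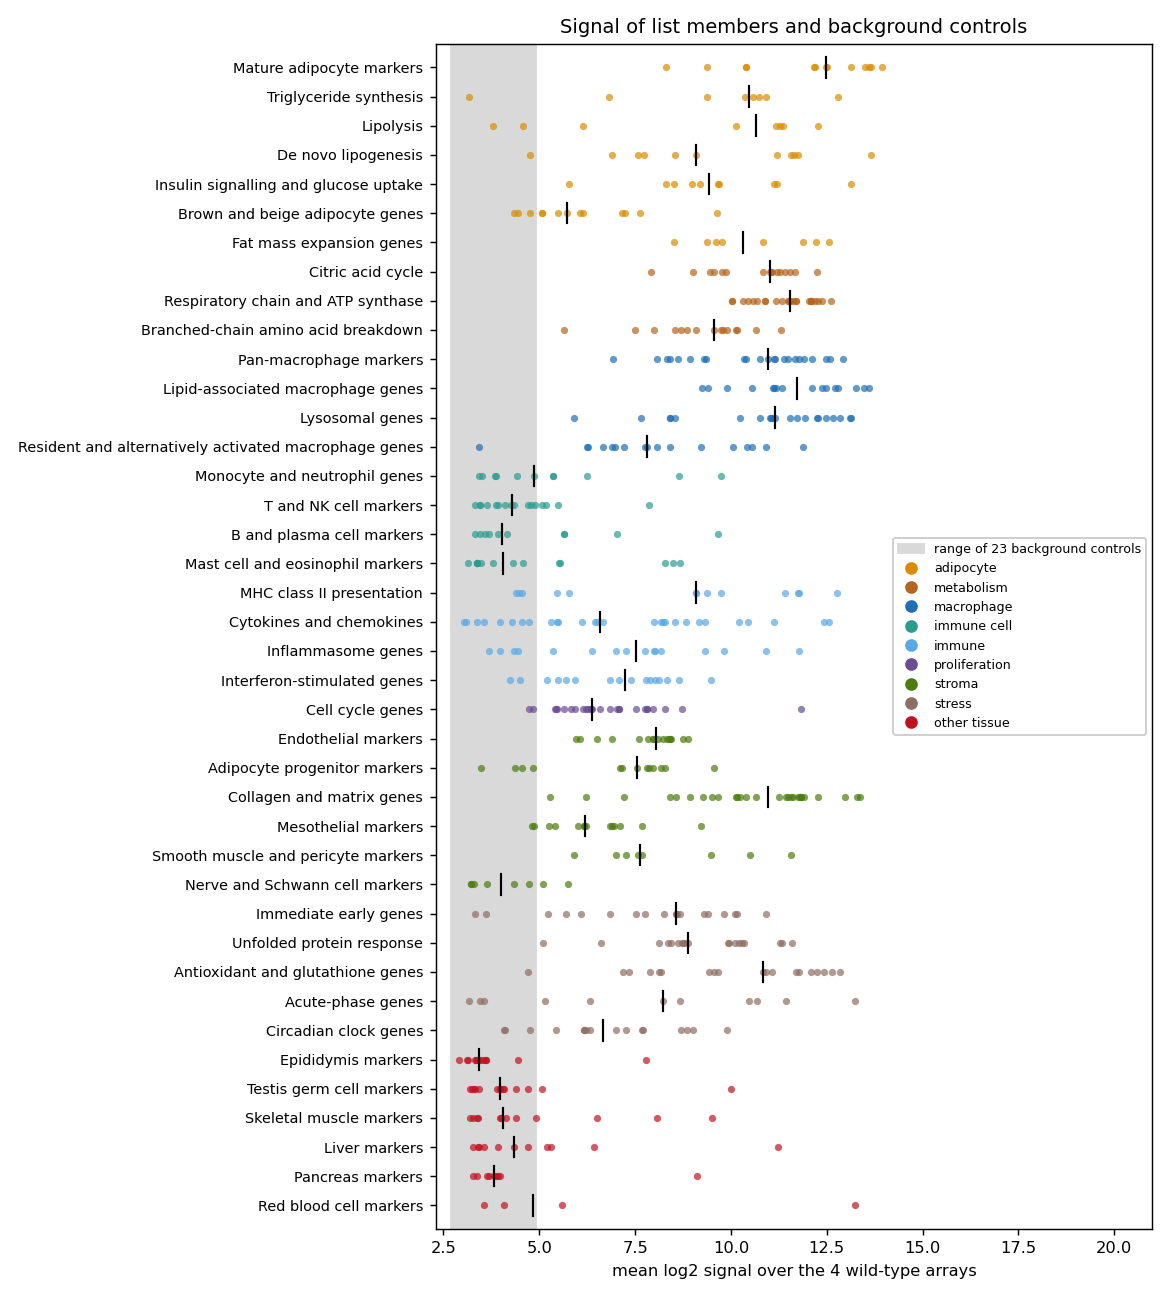
Mean log2 signal over the 4 wild-type arrays (x axis) of each matched member of 40 gene lists other than Adgre1 (y axis). Each point is a gene, coloured by the role of its list, each black bar the list's median, and the grey band spans the lowest to the highest reading of the 23 background controls; adipocyte, mitochondrial, macrophage and matrix lists lie mostly to the right of the band, and epididymis, testis, pancreas and lymphocyte lists mostly within it.

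Adgre1 was bright on every array and not equally so. It read 10.25, 10.52, 11.82 and 11.38, with a mean of 10.99 ± 0.73 (SD, n = 4). Replicates 1 and 2 lay close together and low, and replicates 4 and 3 were high. The range from the lowest to the highest array was 1.56, a 2.95-fold difference in signal. A single probe set represents the gene.

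With 4 arrays a correlation across samples was not computed. A gene was instead said to follow the order of Adgre1 where its signal was lowest on replicate 1, then higher on replicates 2, 4 and 3 in turn, with a range of at least 1. A gene in the reverse order had the opposite ranking and the same minimum range. There are 24 possible orders of 4 arrays, and an exact two-sided test of one order against its reverse cannot give a p below 0.0833, so orders are described with no p. Of the 17097 genes, 600 (3.51%) followed the order of Adgre1 and 396 (2.32%) the reverse. These shares are the background for the counts in each gene list. Of the 600, 522 were above background on all 4 arrays, and of the 396, 265 were, and readings at background have no reliable order.

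Replicate 1 mattered to both sets. Over replicates 2 to 4 alone, 328 genes (1.92%) kept the order with a range of at least 1 and 428 (2.50%) the reverse. Of the 600 genes, 243 (40.5%) were among these 328, and of the 396 genes, 189 (47.7%) were among the 428. A second probe set above background existed for 133 genes in the order of Adgre1, and it had the same order in 99 and the same order with the range in 81. In the reverse order the counts were 37 and 32 of 65. The sign of the difference between replicates 3 and 1 was the same in 131 of 133 and in 65 of 65. At the threshold, Rp2 and Tor4a lay just inside the order of Adgre1 with ranges of 1.00, and Aoah just outside with 0.998. Fasn and Rbm28 lay just inside the reverse order with ranges of 1.00, and Erbb2 just outside with 0.999.

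Most other macrophage markers followed Adgre1. Of 23, 16 had its order with a range of at least 1, beside 3.51% of all genes, and none had the reverse order. At any range 20 had its order, against 12.1% of all genes. All 23 were highest on replicate 3, as were 30.0% of all genes. Cd68, a lysosomal membrane protein of macrophages, read 11.27, 11.82, 12.84 and 12.57. Csf1r, the receptor for the macrophage growth factor CSF-1, read 8.50, 9.06, 9.97 and 9.61. The mean of the list was 9.78, 10.24, 11.17 and 10.73, so replicate 3 exceeded replicate 1 by 1.39. Without replicate 1, 11 of the 16 kept the order and the range.

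The spread was not the same for every marker. Itgam, the integrin CD11b, had the largest range of the list at 2.87, with 5.52, 6.48, 8.40 and 7.27. Spi1, the transcription factor PU.1 that macrophages need to form, read 6.79, 8.01, 9.04 and 8.50. Ms4a7, a macrophage membrane protein, read 9.51, 9.76, 11.30 and 10.85. Lyz2, the lysozyme of macrophages, spread much less, at 12.31, 12.63, 12.82 and 12.60. Tyrobp and Ctss did not reach the minimum range either.

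The 8 genes most like Adgre1 were found by the root mean square distance between profiles, each centred on its own mean over the 4 arrays. The closest was Evi2a, a leukocyte membrane protein, at a distance of 0.03 and with 9.21, 9.45, 10.76 and 10.39. Fcgr3, a receptor for antibodies, lay at 0.05 with 10.27, 10.54, 11.71 and 11.31. Creg1, a lysosomal glycoprotein, also lay at 0.05, with 11.02, 11.34, 12.68 and 12.12. Galnt7, which starts sugar chains on proteins, Cygb, a globin of fibroblast-like cells, and Gpr34, Il10ra and Syk made up the rest, at 0.05 to 0.06. Gpr34 is a lipid receptor of macrophages, Il10ra the interleukin-10 receptor and Syk a kinase below many immune receptors. Syk was above background on 2 arrays only.

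Some genes in this order spread further than Adgre1. Clec4d, a lectin receptor of myeloid cells, read 7.69, 8.87, 11.29 and 10.004, a range of 3.60. Serpinb9b had the largest range, 4.56, with 5.52, 6.83, 10.08 and 8.12, but belongs to a serpin family with close copies that its probes may share. Anpep, the peptidase CD13, read 5.18, 7.16, 8.55 and 7.79. By the rule that picked them, all of these were lowest on replicate 1 and at least 2-fold brighter on replicate 3. Gdf3, a ligand of the TGF-beta family, read 4.64, 5.98, 7.79 and 7.05 and was at background on replicate 1. Afp, the fetal serum protein, and the proteoglycan gene Epyc were at background on replicate 1 and reached 6.96 and 7.26 on replicate 3. Cdk18, a cyclin-dependent kinase, read 5.24, 6.79, 8.07 and 7.31.

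PU.1, the product of Spi1, binds purine-rich DNA, and its letters could be looked for in promoters. RefSeq promoters of the GRCm38.p6 build, each 300 bases long, were available for 472 of the 600 genes in the order of Adgre1 and for 303 of the 396 in the reverse order. Adgre1 itself is named only. The letters GAGGAAGT, which contain the shorter ETS family letters AGGAAGT and GAGGAA, were searched on both strands. They occurred in 50 of 616 promoters of the first set (8.12%), in 8 of 388 of the second (2.06%) and in 3.20% of all 32851 promoters. The shorter AGGAAGT occurred in 18.5%, 7.47% and 9.35%. A match is a description of the letters and not a site, and 15 motifs were searched in all. Promoters of 3 genes in the order of Adgre1 are printed 5′ to 3′ with the match on either strand in capitals. Hpgds, the prostaglandin D2 synthase, lies at chr6:65144681-65144980 on the minus strand, Cd72, a lectin of B cells and macrophages, at chr4:43454577-43454876 on the minus strand, and Sh3bp2, an adaptor bound by SYK, at chr5:34549326-34549625 on the plus strand.
Hpgds: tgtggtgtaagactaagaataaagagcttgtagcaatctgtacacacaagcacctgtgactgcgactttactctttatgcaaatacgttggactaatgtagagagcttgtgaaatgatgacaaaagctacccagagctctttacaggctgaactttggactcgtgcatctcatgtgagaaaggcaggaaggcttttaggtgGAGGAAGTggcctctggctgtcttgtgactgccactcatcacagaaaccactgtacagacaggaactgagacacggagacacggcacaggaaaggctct
Cd72: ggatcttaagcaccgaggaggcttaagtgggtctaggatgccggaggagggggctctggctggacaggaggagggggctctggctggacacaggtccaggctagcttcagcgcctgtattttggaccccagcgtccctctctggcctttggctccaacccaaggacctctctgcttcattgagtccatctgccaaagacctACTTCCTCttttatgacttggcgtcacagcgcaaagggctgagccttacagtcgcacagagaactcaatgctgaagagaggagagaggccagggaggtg
Sh3bp2: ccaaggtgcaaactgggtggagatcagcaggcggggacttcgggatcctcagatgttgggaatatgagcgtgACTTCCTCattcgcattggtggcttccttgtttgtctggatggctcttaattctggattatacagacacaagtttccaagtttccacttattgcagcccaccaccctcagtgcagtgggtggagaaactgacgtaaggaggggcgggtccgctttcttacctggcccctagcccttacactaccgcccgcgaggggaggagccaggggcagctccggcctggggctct
The match starts 49 bases before the gene's start in Hpgds and in Cd72 and 178 bases before it in Sh3bp2. Hpgds read 6.12, 6.82, 8.86 and 8.77. Cd72 read 7.59, 8.00, 9.85 and 9.31. Sh3bp2 read 5.95, 6.88, 8.12 and 7.19. All were above background on every array, and these promoters were picked after the values were seen, from matching genes of large range. Pira1 was passed over because it belongs to a family of close copies.

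**Figure D2:**
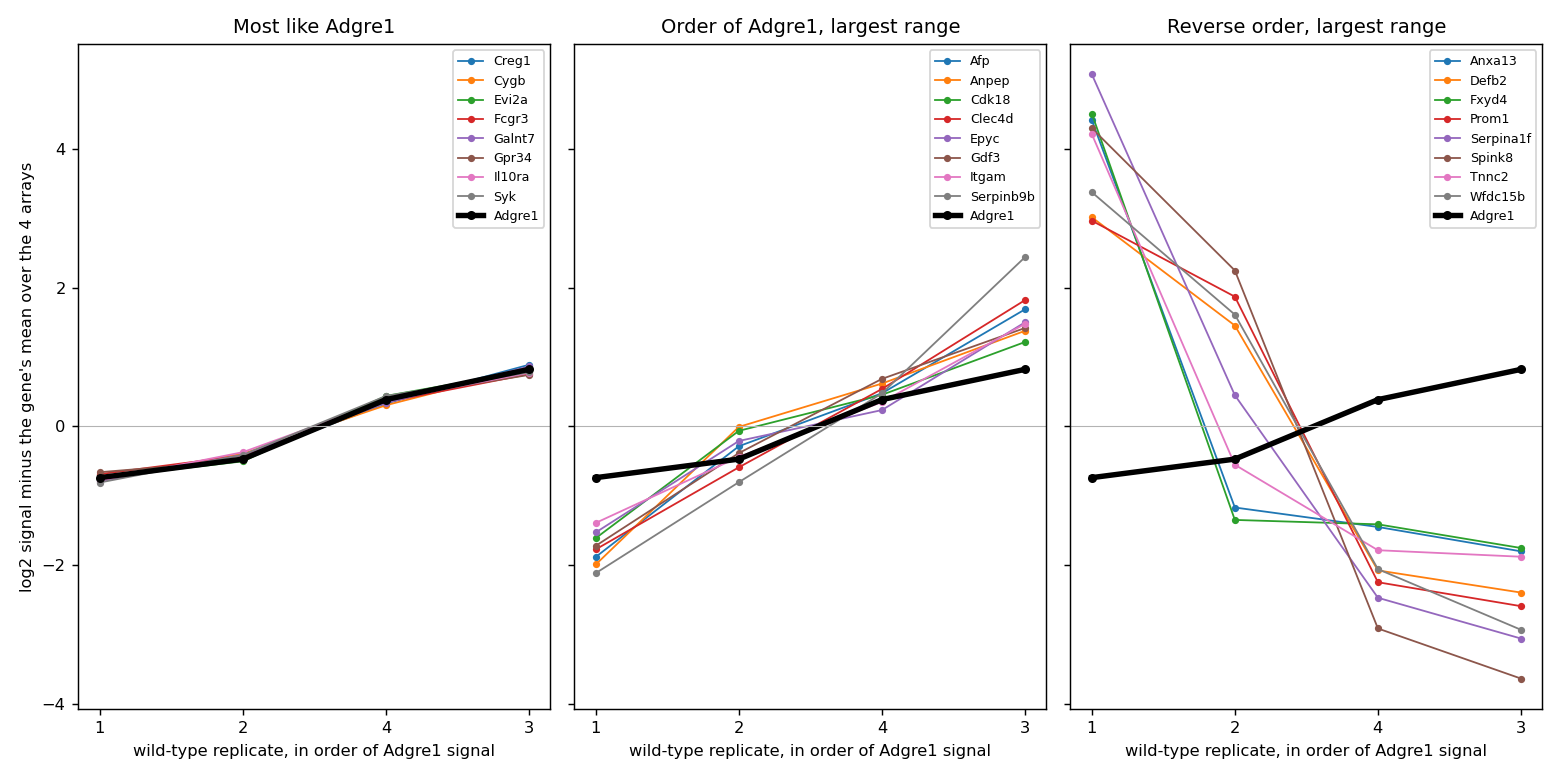
Log2 signal minus the gene's own mean over the 4 arrays (y axis) on replicates 1, 2, 4 and 3, placed in order of Adgre1 signal (x axis); the thick black line is Adgre1. The 8 genes most like Adgre1 (left) overlie it, the 8 of largest range in its order (middle) are steeper, and the 8 of largest range in the reverse order (right) are high on replicate 1 and at background on replicates 3 and 4.

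Genes of lipid-associated macrophages, the cells that ring dying adipocytes, followed Adgre1 in 10 of 16 cases and the reverse order in none. Over all genes the shares were 3.51% and 2.32%. Trem2, the lipid receptor that defines these macrophages, read 9.48, 10.14, 11.40 and 11.13. Gpnmb, a glycoprotein of lipid-laden macrophages, read 11.22, 11.78, 12.95 and 12.47. Atp6v0d2, a subunit of the lysosomal proton pump, read 10.25, 10.82, 12.01 and 11.61. In each, replicates 1 and 2 were low and replicates 4 and 3 high, a ranking set by the rule that picked them. Itgax, the integrin CD11c, read 9.06, 9.84, 10.68 and 10.001, and Cd9, a tetraspanin, read 10.29, 10.56, 12.00 and 11.55. Without replicate 1, 7 of the 10 kept the order and the range. Among the 6 that did not follow, Lpl and Plin2 are also genes of adipocytes and spread by less than the minimum.

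Lysosomal genes leaned the same way with smaller ranges. Of 21, 20 were highest on replicate 3, as were 30.0% of all genes. Only 4 had the order and a range of at least 1, beside 3.51% of all genes, and none did so without replicate 1. Gla, an alpha-galactosidase, read 7.73, 8.36, 9.34 and 8.70, and Npc1, which moves cholesterol out of lysosomes, read 7.81, 8.11, 9.08 and 8.68. A second probe set of Gla had replicate 2 above replicate 4, at 5.33, 6.16, 7.55 and 6.03. The median of this list between replicates 3 and 1 was 0.59, against 1.44 for the pan-macrophage markers and -0.02 for all genes.

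The genes of resident and alternatively activated macrophages did not move as a block. Of 17, 1 had the order of Adgre1 and 2 the reverse, beside 3.51% and 2.32% of all genes. The mean of the list stayed between 8.05 and 8.26. Mrc1, the mannose receptor CD206, read 10.50, 10.64, 11.55 and 10.98. Retnla, a secreted protein induced by interleukin-4, went the other way with 12.45, 12.39, 10.89 and 11.77. Cd209d, a lectin of the DC-SIGN family, read 7.49, 7.44, 6.26 and 6.40, and its close paralogs may share its probes. Mgl2, at 7.44, 7.45, 6.45 and 6.53, and Chil3, at 7.29, 7.18, 5.32 and 5.18, were also higher on replicates 1 and 2 without an exact reverse order. Folr2, the folate receptor of tissue macrophages, was high where Adgre1 was, at 9.91, 9.88, 11.36 and 11.05. Timd4 was above background on no array.

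Among 16 inflammasome genes, 5 followed Adgre1 and none the reverse, beside 3.51% and 2.32% of all genes. Pycard, which encodes the adaptor ASC, read 9.10, 9.65, 10.57 and 9.97. Casp1, the protease that cuts the precursors of interleukin-1beta and interleukin-18, read 8.71, 9.09, 9.99 and 9.49. Naip5, a sensor of bacterial flagellin, read 5.68, 6.06, 7.14 and 6.63, and Naip2 also followed, though the Naip genes are near copies of each other. Il1r1, the interleukin-1 receptor, read 7.33, 7.46, 8.49 and 7.76. Nek7, a kinase that NLRP3 needs, stayed between 10.86 and 10.95. Pycard and Casp1, the genes removed in the study's other genotypes, had ranges of 1.48 and 1.28 over the 4 arrays. Without replicate 1 the ranges were 0.93 and 0.89, below the minimum. Then 2 of the 5, Naip5 and Il1r1, kept the order and the range.

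Of 28 cytokines and chemokines, 5 followed Adgre1, beside 3.51% of all genes. Ccl11, the eosinophil attractant eotaxin, read 8.18, 8.98, 10.22 and 9.94. Il1rn, the antagonist of the interleukin-1 receptor, read 7.45, 8.49, 9.28 and 8.96, and Csf1, the macrophage growth factor, read 7.77, 8.04, 8.83 and 8.48. Tgfb1 and Cxcl14 were the other two, and 2 of the 5 kept the call without replicate 1. Ccl3, a chemokine of activated macrophages, was split between the pairs of arrays at 5.56, 5.47, 7.54 and 7.47. Ccl2 and Ccl7, which recruit monocytes, were instead highest on replicate 2. Of 13 genes of MHC class II presentation, 3 had the order with the range, beside 3.51% of all genes. Among them was Cd74, the invariant chain, at 10.76, 11.48, 11.93 and 11.52. Without replicate 1, 1 of these 3 kept the order and the range. None of 16 interferon-stimulated genes had either order with the range, and 10 were highest on replicate 1, as were 31.2% of all genes.

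Of 14 markers of mast cells and eosinophils, 1 had the order of Adgre1 with the range, beside 3.51% of all genes. In this list 7 were above background on no array. Several mast cell genes, picked after their values were seen, were higher on replicates 3 and 4. Cpa3, the mast cell carboxypeptidase, read 7.61, 7.17, 9.87 and 9.28. Mcpt4, a mast cell chymase, read 7.17, 7.15, 9.68 and 9.11, and Cma1, another chymase, read 7.80, 7.62, 9.97 and 9.31. In all 3, replicates 3 and 4 lay above replicates 1 and 2 by more than 1, while replicates 1 and 2 ranked opposite to Adgre1, so they do not count in its order. Fcer1a, the IgE receptor chain, read 4.31, 4.49, 6.99 and 6.33 and does count. It was at background on replicates 1 and 2, so its ranking between those arrays has no meaning. Of the 14 markers, 5 had the order over replicates 2 to 4 with the range, beside 1.92% of all genes. The eosinophil genes Epx, Prg2 and Siglecf were above background on no array.

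Cell cycle genes also ran with Adgre1. All 27 were highest on replicate 3, and 15 had the order with the range, beside 3.51% of all genes. Their mean was 6.17, 6.70, 7.36 and 6.92. Ccnb2, a cyclin of mitosis, read 5.87, 6.49, 7.69 and 7.30. Tk1, a thymidine kinase of S phase, read 6.08, 7.08, 7.75 and 7.46, and Prc1, a protein of the dividing spindle, read 6.28, 7.11, 7.69 and 7.21. Mki67, the proliferation marker Ki-67, ranked differently at 7.67, 8.39, 8.76 and 8.30, because replicate 2 lay above replicate 4. Without replicate 1, 3 of the 15 kept the order and the range. Tk1 and Prc1 kept the order then, with ranges of 0.67 and 0.59. Which cells carried these transcripts cannot be read from whole tissue.

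The promoters of these genes were searched for letters that cell cycle genes are known for, and not all of them were more frequent. CCAAT, bound by NF-Y, occurred on either strand in 20 of 24 of their promoters (83.3%) and in 37.4% of all promoters. TTTGAA, the letters of the cell cycle homology region, occurred in 54.2% and 17.9%. The promoter of Ccnb2 is shown because it holds CCAAT 3 times, in capitals, at chr9:70421505-70421804 on the minus strand. Among the 600 genes in the order of Adgre1, CCAAT was in 33.3% of promoters.
Ccnb2: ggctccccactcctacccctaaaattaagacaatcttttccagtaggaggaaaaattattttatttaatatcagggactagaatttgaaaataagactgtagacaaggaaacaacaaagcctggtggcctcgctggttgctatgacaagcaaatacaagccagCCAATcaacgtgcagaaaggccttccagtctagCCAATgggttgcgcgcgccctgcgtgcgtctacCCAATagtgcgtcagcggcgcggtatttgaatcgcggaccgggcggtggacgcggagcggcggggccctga

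Collagen, progenitor, endothelial and stress lists held few genes in either order. Over all genes, 3.51% had the order with the range and 2.32% the reverse. A count of 1 or 2 in lists of this size is too small to read as a pattern. Of 28 collagen and matrix genes, 2 followed Adgre1. Mmp3, a matrix protease, read 6.05, 6.10, 8.85 and 7.87, and Mmp14, the membrane-bound protease that activates MMP2, read 9.55, 10.01, 10.86 and 10.19. Col3a1, Sparc and Dcn each spread by less than 0.5. Of 13 progenitor markers, 3 followed. They were Pdgfrb, Icam1 and Pdgfra, of which Pdgfra was above background on replicate 3 only, at 5.58. Endothelial markers had 1 of 16 in the reverse order, Cldn5 of tight junctions, and 10 of 16 were highest on replicate 4, beside 15.8% of all genes. Pecam1, an endothelial adhesion molecule, spread by 0.38, about the median range of all genes (0.39). Of the immediate early genes, 3 of 19 followed Adgre1, and Atf3, a stress-induced transcription factor, had the largest range at 9.17, 9.71, 11.28 and 10.45. In the unfolded protein response 1 of 19 followed, and among antioxidant genes none of 19 had either order with the range.

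Adipocyte genes were mostly lowest on replicate 3, the array with the highest Adgre1. This held for 12 of 13 mature adipocyte markers, beside 30.1% of all genes. Yet only 3 had the exact reverse order with the range, beside 2.32% of all genes. Retn, the hormone resistin, read 12.93, 12.60, 10.97 and 12.23. Slc2a4, the insulin-responsive glucose transporter GLUT4, read 8.85, 8.78, 7.06 and 8.55. A second probe set of Slc2a4, at 7.12, 6.94, 5.60 and 7.02, was lowest on replicate 3 without the exact reverse order. Plin4, a lipid droplet coat protein, read 12.92, 12.81, 11.80 and 12.45. In all 3, replicate 3 was lowest by the rule that picked them, and the other arrays lay closer together. Without replicate 3, none of the 13 was in the reverse order, while 4 were without replicate 1. Adipoq, Lep and Fabp4 did not reach the range, and Lep read 12.61, 12.78, 12.02 and 12.49.

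The enzymes of fat storage were mostly lowest on replicate 3 as well. Of 8 triglyceride synthesis genes, 7 were lowest on replicate 3 and 3 were in the reverse order. Over all genes the shares were 30.1% and 2.32%, here and for the counts below. Mogat1, a monoacylglycerol acyltransferase, read 7.52, 7.34, 5.24 and 7.21, and Dgat1, which makes triglyceride, read 10.81, 10.76, 9.66 and 10.23. Replicate 3 stood far below the others in Mogat1, while in Dgat1 replicate 4 lay between, and Gpam, which starts glycerolipid synthesis, was low on replicates 3 and 4 alike at 10.95, 10.91, 10.18 and 10.22. Without replicate 1, 2 of the 3 kept the reverse order and the range. Of 11 genes of fatty acid synthesis, 10 were lowest there and 4 were in the reverse order. Fasn, the fatty acid synthase, read 12.05, 11.91, 11.05 and 11.59. Acacb, an acetyl-CoA carboxylase, read 7.67, 7.09, 5.73 and 7.07, and was the only 1 of the 4 that kept the call without replicate 1. For lipolysis the counts were 7 and 1 of 8, and for insulin signalling 9 and 1 of 10. Pde3b, which lets insulin restrain lipolysis, read 11.72, 11.49, 10.56 and 11.37.

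Mitochondrial genes were lower on replicate 3 by smaller amounts. Of 24 respiratory chain and ATP synthase subunits, 23 were lowest on replicate 3, beside 30.1% of all genes. None had the reverse order with a range of at least 1, beside 2.32% of all genes. The mean of the 24 was 11.54, 11.42, 11.17 and 11.49, a spread of 0.38. Cox4i1, a subunit of cytochrome c oxidase, read 12.69, 12.65, 12.46 and 12.61. Of 15 genes of branched-chain amino acid breakdown, 14 were lowest on replicate 3 and 3 were in the reverse order. Hibch, an enzyme of valine breakdown, read 10.23, 10.03, 8.96 and 9.99. A second probe set of Hibch, at 7.31, 7.41, 6.31 and 7.54, did not have the exact reverse order. RMA forces the same distribution onto each array, so every signal is relative to the other transcripts on its array.

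**Figure D3:**
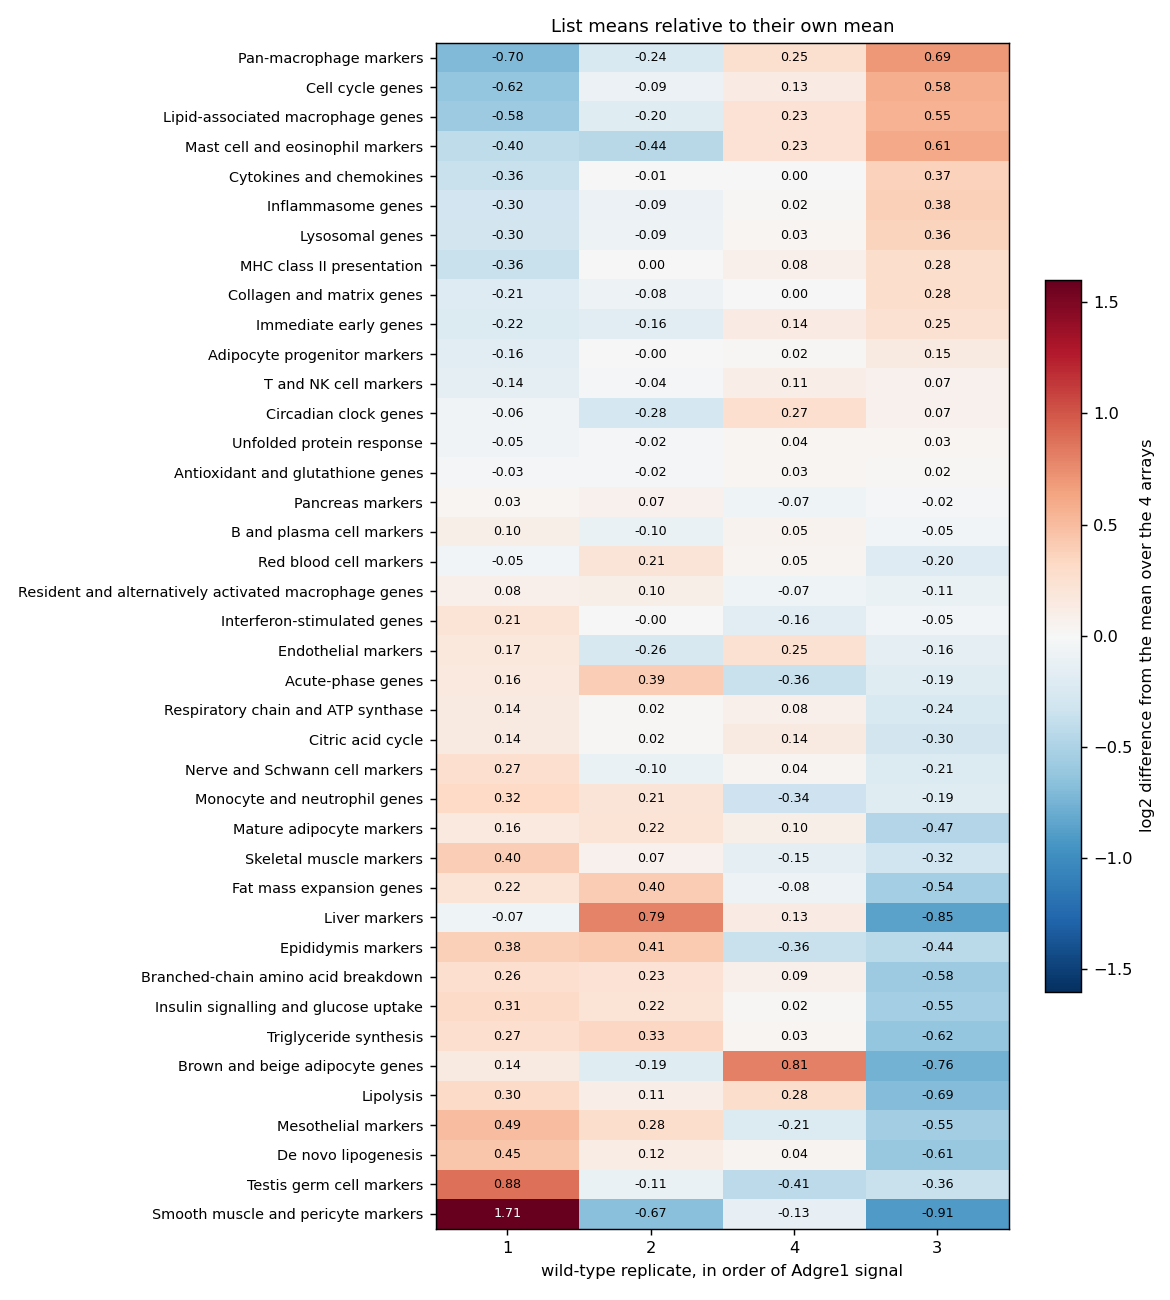
Mean log2 signal of each gene list minus its own mean over the 4 arrays (colour and printed value), for replicates 1, 2, 4 and 3 in order of Adgre1 signal (x axis) and lists sorted by replicate 3 minus replicate 1 (y axis). The pan-macrophage, cell cycle and lipid-associated macrophage lists are at the top, the resident macrophage list lies near the middle, the mature adipocyte and de novo lipogenesis lists are below 0 on replicate 3 alone, and the smooth muscle, testis and brown fat lists stand out on 1 array.

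The genes with the largest ranges in the reverse order were not adipocyte genes. Serpina1f, a serpin, read 11.64, 7.01, 3.50 and 4.09. Spink8, a protease inhibitor of the epididymis list, read 12.10, 10.05, 4.16 and 4.88. Wfdc15b, another small secreted inhibitor, read 9.74, 7.97, 3.42 and 4.30. All 3 were bright on replicates 1 and 2 and at background on replicates 3 and 4. Prom1, the epithelial membrane protein prominin-1, read 9.53, 8.43, 3.96 and 4.31, and Defb2, a beta-defensin, read 8.58, 7.02, 3.17 and 3.49. Fxyd4, Anxa13 and Tnnc2 were high mainly on replicate 1, at 9.63, 9.34 and 9.82. Fxyd4 and Anxa13 were at background on the other arrays. All 8 genes of largest range were at background on replicates 3 and 4, so their ranking there has no meaning and no fold is given. Fxyd4 regulates the sodium pump in epithelia, Anxa13 is an annexin of epithelia and Tnnc2 is a troponin of fast muscle. Cuzd1, with 8.82, 9.98, 3.12 and 3.69, had the same split with replicate 2 highest.

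Epithelial keratins had this order too. Krt8 read 9.17, 7.25, 4.998 and 6.39, and Krt18 read 8.80, 6.95, 4.96 and 6.89. With Krt19 and the epithelial cadherin gene Cdh1 they made up the 4 of 14 entries of the mesothelial list in the reverse order. Cdh1 was above background on replicate 1 only, so its ranking on the other arrays has no meaning. The defining mesothelial genes did not share the reverse order. Upk3b read 8.95, 9.75, 9.06 and 9.15, and Msln read 5.97, 6.89, 5.71 and 5.51. Of the epididymis list, Spink8 and Adam7 (4.48, 6.20, 3.43 and 3.68) exceeded background on any array, while Lcn5, Lcn8 and the other 9 members did not. The mean of that list was 4.16, 4.19, 3.34 and 3.42. Whether tissue of the ducts beside the pad was part of some samples was not tested.

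Smooth muscle genes were far brighter on replicate 1 than on the other arrays. Cnn1, the smooth muscle calponin, read 11.09, 3.61, 3.67 and 5.26. Myh11, the smooth muscle myosin, read 11.04, 5.32, 5.41 and 7.27. Actg2, an actin of visceral smooth muscle, read 11.22, 3.74, 3.73 and 4.66. The mean of the 8 smooth muscle and pericyte markers was 10.08 on replicate 1 and 7.70, 7.46 and 8.25 on the others. Rgs5, a pericyte marker, did not share the difference, at 10.66, 10.23, 10.27 and 10.86. The largest range of all named genes was that of Pcp4, a calmodulin-binding peptide, at 11.91, 3.47, 3.44 and 7.51. Ptgs2, the inducible cyclooxygenase, read 11.90, 3.94, 4.44 and 5.02, and Rbfox3, known as a neuronal splicing factor, read 10.07, 4.45, 4.06 and 4.70.

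Transcripts of late sperm cells were also brightest on replicate 1. Prm1, a protamine that packs sperm DNA, read 7.17, 4.97, 4.46 and 3.70, and Tnp1, a transition protein, read 6.99, 4.06, 3.23 and 3.26. Of the 14 testis markers, 10 were highest on replicate 1, beside 31.2% of all genes. However, 7 of the 14 were above background on no array, and the ranking of such readings has no meaning. Sycp3 was the only one above background on all arrays, at 9.86, 10.06, 9.71 and 10.43, and did not share the pattern. Ckm, the muscle creatine kinase, read 6.57, 3.67, 3.70 and 3.58. The 3 skeletal muscle markers above background on all arrays were Acta1, Myl1 and Pvalb. Acta1 read 9.46, 7.58, 6.97 and 8.25, Myl1 read 10.08, 9.65, 8.56 and 9.73, and Pvalb read 7.03, 7.42, 5.99 and 5.60.

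Replicate 4 stood apart in brown fat genes. Ucp1, the uncoupling protein of heat-producing fat, read 4.74, 3.97, 3.89 and 9.30. Cidea, a lipid droplet protein of brown fat, read 6.01, 4.97, 4.53 and 9.02. Cpt1b, the muscle and brown fat carnitine palmitoyltransferase, read 5.70, 5.81, 5.13 and 7.60. Of 13 brown and beige genes, 7 were highest on replicate 4, beside 15.8% of all genes, and none had either order of Adgre1. Cox7a1 and Cox8b were also highest there, while Prdm16 was not, at 5.18, 5.48, 4.52 and 5.15. Dio2 and Elovl3 were above background on replicate 1 only.

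Plasma protein genes of the liver list differed again. Alb, serum albumin, read 4.34, 6.79, 3.65 and 6.44, and Ttr, transthyretin, read 2.70, 6.51, 3.21 and 4.90. Both were highest on replicate 2 and at background on replicates 1 and 3, and Ttr was at background on replicate 4 too. Cyp2e1, a liver enzyme that fat also expresses, was bright throughout and lowest on replicate 3, at 12.39, 11.63, 8.88 and 12.01.

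**Figure D4:**
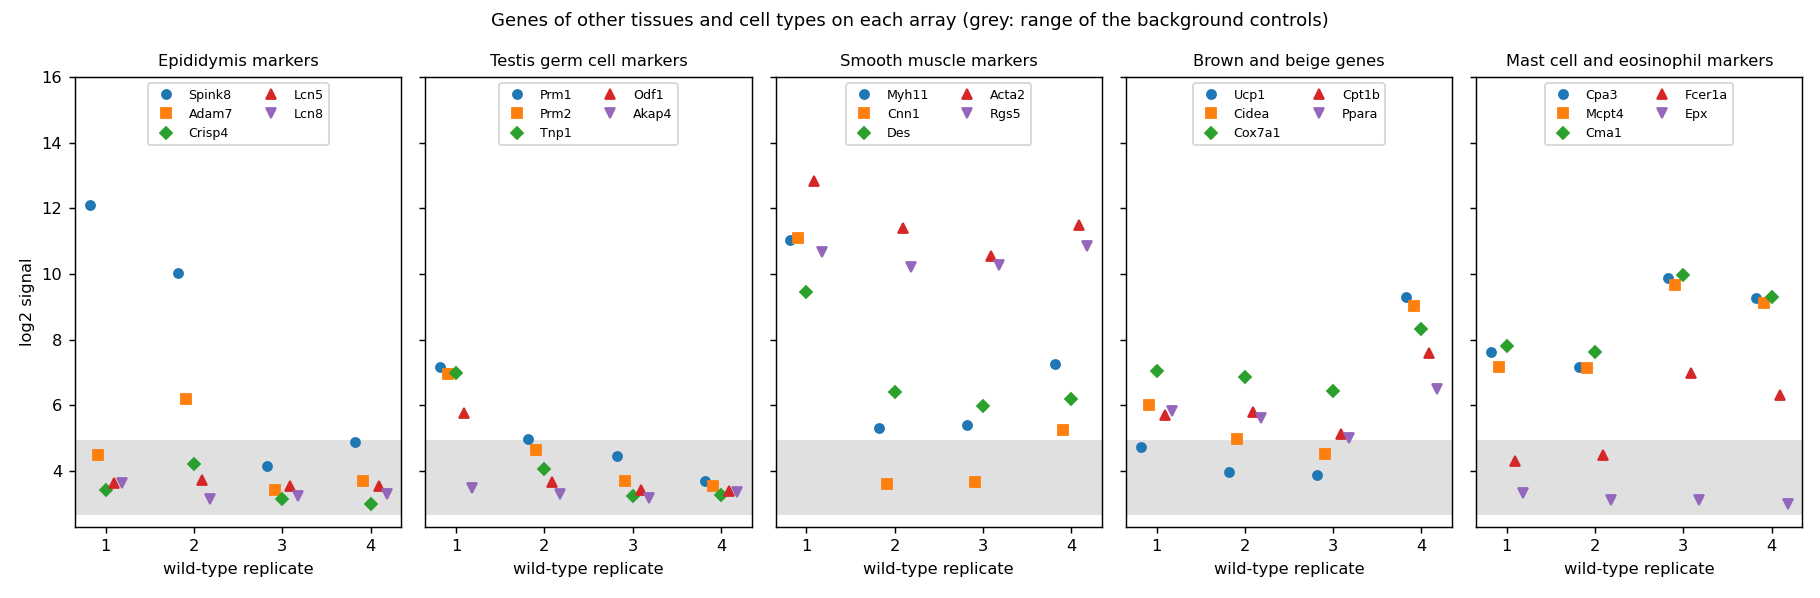
Log2 signal (y axis) of 5 genes from each of 5 lists on wild-type replicates 1 to 4 (x axis), with the range of the background controls in grey and points shifted sideways for legibility. Spink8 is high on replicates 1 and 2, the smooth muscle and sperm genes on replicate 1, Ucp1 and Cidea on replicate 4, and the mast cell genes Cpa3, Mcpt4 and Cma1 on replicates 3 and 4; the 5 genes were chosen after their values were seen.

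At the other end, some genes above background on all 4 arrays hardly varied. Ggnbp2 read 9.76, 9.75, 9.76 and 9.75, and Bcdin3d spread by 0.01 as well. Rit1, a small GTPase, spread by 0.02, and Pgam5 and Phb2, both mitochondrial, and B3galnt2, a glycosyltransferase, by 0.03. These genes were chosen for their small ranges, each on its brightest probe set. Other probe sets of Phb2, Rit1 and B3galnt2, also above background on all 4 arrays, spread by 0.41, 0.58 and 0.52. Of all 17097 genes, 2001 (11.7%) had a range of at least 1. Of those 2001, 810 were highest on replicate 3, 726 on replicate 1, 326 on replicate 2 and 139 on replicate 4.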

How the data were processed

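Signals of 4 wild-type arrays (Affymetrix HT_MG-430 PM) were used. The deposited values are log2 signals that the authors made with RMA, per the submitters' processing notes, and its version and the set of arrays normalized together are not given in the sources used here. RMA forces the same distribution onto each array and compresses small differences near background. The number of arrays limits the precision.

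Of 45141 probe sets, 104 are controls, 28898 had 1 gene symbol, 551 several and 15588 none in GEO's platform annotation. Each of 17097 genes was read from its brightest probe set on average over the 4 arrays, and 7180 genes had several. Values were computed with Python 3.11.15, numpy 2.4.6 and pandas 2.3.3, plotted with matplotlib 3.10.9, and the counting was tested on simulated data. With 1 group there was no test.

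The members and the 40 gene lists (589 of 679 entries matched) were chosen with earlier results of these data known. Genes were named by rule: Adgre1, a set of fixed genes of fat and inflammation, of which 31 matched, the 8 most like Adgre1, the 8 of largest range in each order, the 6 of largest range in neither, the 6 of smallest range, and up to 3 members of each list. Other list members, Hpgds, Cd72 and Sh3bp2 were named after their values were seen, and the motifs were looked at with the orders known. Alternatives covered scaling, the choice of probe set, the minimum range, the background limit, the reference gene, a filter on dim genes, and leaving out each array. The arrays of both null genotypes were not used here.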

Additional observations from a re-analysis of the deposited data

Results flagged for a closer look

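In a group of 4, an array was taken to stand apart where its gap to the nearest other array took up more of the whole range than Dixon's critical value allows, which chance gives in about 1 of 20 groups. Of 194 named genes, lists and control measures checked, 11 did so (5.67%). Many of these genes were named for their range or order on the same arrays, so this share cannot be compared with the chance share.

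Replicate 1 stood apart, high, in 7 of these 11. Its signals were 11.22 for Actg2 and 9.46 for Des, both of smooth muscle, 11.90 for Ptgs2, 10.07 for Rbfox3, 9.63 for Fxyd4, 9.34 for Anxa13 and 7.65 for Ncam1, a neural adhesion molecule. Replicate 3 stood apart, low, in Mogat1 at 5.24 and Slc2a4 at 7.06. Replicate 4 stood apart in Ucp1 at 9.30. Replicate 2 stood apart in the mean of the hybridisation controls, at 10.35 against 9.98 to 10.04 on the other arrays.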

How the results depend on the processing

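The counts depend on the minimum range and on single arrays. With a minimum range of 0.5 or 1.5, the genes in the order of Adgre1 numbered 1314 or 225 and those in the reverse order 1053 or 184, and with 1.5 the macrophage markers in the order numbered 10. Leaving out each array in turn gave 279 to 726 genes in the order (328 without replicate 1 and 279 without replicate 3) and 327 to 658 in the reverse order (658 without replicate 2). The macrophage markers in the order then numbered 11 to 17, and the adipocyte markers in the reverse order 0 to 4, with 0 without replicate 3. An order of 3 arrays is met more easily than one of 4, and leaving out an end array shortens the ranges. Centring each array on its median gave 564 and 443 genes, and quantile normalization 556 and 438. Of these, 563 and 393, and 555 and 392, were genes of the deposited scale. These scalings moved array medians by at most 0.02. The range of Adgre1 stayed between 1.13 and 1.56, and genes above background between 8727 and 11966. For the named genes and lists, the difference between the arrays of highest and lowest Adgre1 signal was recomputed under scaling, probe set choice and each left-out array. None that was in either order turned its sign. A gene in either order keeps its sign whichever array is left out, so only scaling and probe set choice could have turned it. Of the 1330 values, 173 moved by more than 1 SD, 142 of them without replicate 1 or 3. No paired analysis was possible because the arrays form 1 group.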

Other observations

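Acute-phase genes, which obese fat makes along with the liver, followed neither order of Adgre1 in any of 11 cases. Saa3, a serum amyloid A protein of fat and macrophages, read 11.13, 11.51, 10.04 and 9.25 on replicates 1 to 4. Hp, haptoglobin, read 13.48, 13.46, 13.11 and 12.94, and Serpina3n, a protease inhibitor, read 11.09, 11.23, 10.06 and 10.36. All 3 were higher on replicates 1 and 2, where Adgre1 was low. S100a8, a calcium-binding protein of neutrophils and monocytes, had the same split at 10.21, 10.49, 9.28 and 8.97. Its list did not share the split as a set. Of 11 monocyte and neutrophil genes, 3 were highest on replicate 1, 2 on replicate 3 and 3 on replicate 4. In that list 1 gene had the reverse order with the range, and 5 were above background on no array. The neutrophil granule genes Mpo, Elane and Camp were above background on no array, and Ltf, lactoferrin, read 7.32, 5.78, 4.13 and 4.22.

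Clock genes also differed between mice. Per2, a repressor of the circadian clock, read 5.13, 5.50, 6.57 and 7.44, and Per1 read 7.22, 7.24, 7.75 and 8.55. Dbp, a clock output factor, read 7.56, 6.31, 8.49 and 8.51. Cry1, another repressor, was lower on replicates 3 and 4, at 6.67, 6.47, 5.74 and 5.96. The hour at which each mouse was killed was not analysed here.

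Of the 8 genes that mark fat mass expansion, 7 were lowest on replicate 3, beside 30.1% of all genes. Peg3, an imprinted gene, spread most among the 8 at 10.28, 10.40, 8.35 and 9.44. Hba-a1, an alpha-globin with a near-identical copy, was bright on every array at 13.23, 13.49, 12.88 and 13.39. Of the pancreas list only Cela1 was above background on all arrays, and of the nerve list only Mbp.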
